A study of Rattus norvegicus with 2 samples.

Results

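Proteases that cut the extracellular matrix or shed proteins from the cell surface, and inhibitors of such proteases, were described in AT6.1, an established line of rat prostate cancer cells. The set was chosen by name, with earlier results of these data known. It holds 31 genes, namely 12 matrix metalloproteases (MMPs), 6 ADAMs, 4 ADAMTS proteases, the proteases Htra1 and Bmp1, 5 inhibitors of metalloproteases, and the secreted proteins Slpi and Serpinf1. A gene was taken up through probe sets annotated to that gene alone, which gave 44 probe sets for 30 of the 31 genes, of 14217 genes in all. Adam12 had none in the annotation used and was not analysed here. Values of a gene are those of its brightest probe set by mean log2 signal, and its other probe sets serve as a check.

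Affymetrix arrays were hybridised with total RNA from 1 clone transfected with Ndrg-1 (N-myc downstream regulated gene-1) in the vector pcDNA3 (the Ndrg-1 clone) and from 1 clone with pcDNA3 and no insert (the vector clone). Both clones were cultured in RPMI with 10% serum (FCS) and with G418 at 0.3 mg/mL, which selects for the plasmid. Each group had 1 array, so no p-value was computed, and an effect of the insert cannot be told apart from differences between clones, cultures or arrays. All values are from bulk RNA, in which fewer cells that express a gene and less RNA per cell cannot be told apart.

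The deposited values are probe set signals (intensity, linear scale), 31099 per array, and their trimmed means were 150.0 in both arrays. As floor, under which signals were not compared, served the median signal over both arrays, 31.0. The transfected gene Ndrg1 had signals of 1353 in the Ndrg-1 clone and 1062 in the vector clone on its brighter probe set (log2 ratio 0.34). The dimmer had 154 against 181 (-0.24). On neither probe set was it 2-fold higher in the clone labelled as over-expressing it. Whether these probe sets read the RNA of the insert was not tested. Log2 signals of probe sets over the floor in both arrays correlated with Pearson r = 0.972 across probe sets, which are not independent replicates. Of 4 mesenchymal markers, Vim, Fn1 and Twist1 were over the floor in both arrays and Cdh2 was under it. Among 6 epithelial markers Krt8 alone was above it, at 38.7 and 46.2, and the prostate markers Hoxb13 and Pbsn were under it. Both endothelial markers on the array were under the floor, as were 3 of 4 fibroblast and smooth muscle markers, with Acta2 at 208 in either clone. Of 4 leukocyte markers, Ptprc (2.72 and 3.25) was under the floor and Csf1r was at 15.7 and 33.3, while Cd68 was at 206 in the Ndrg-1 clone and 114 in the vector clone, and Cd14 at 209.8 and 308. The part of other cells in the results was not tested.

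MMPs, ADAMs and ADAMTS proteases are zinc-dependent enzymes that are made as inactive precursors and act outside the cell or at its surface. MMPs degrade collagens and other matrix proteins, ADAMs release growth factors and adhesion proteins from the membrane, and several ADAMTS proteases cleave proteoglycans. TIMPs bind the active sites of these enzymes, and the balance between enzyme and inhibitor is widely studied in tumour invasion.

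Of the 30 genes, 22 had a signal over the floor in 1 or both arrays, which is 73.3% against 64.6% of all 14217 genes. Above it in both arrays were 17 genes, and 5 were above it in 1 array only. Each of these 5 entered through the array where it was high, so its direction supports nothing. The other 8 were under it in both arrays on all their 14 probe sets, with signals between 0.257 and 27.6. These were Mmp2, Mmp7, Mmp9, Mmp12, Mmp13, Mmp16, Adamts5 and Timp3, which could not be compared between the arrays. Nearest to the floor from below was the gelatinase Mmp2, with 22.7 in the Ndrg-1 clone and 26.1 in the vector clone, and from above, by the brighter of the signals, Mmp15, with 35.1 and 25.4. Mmp23 was close to it in both, at 36.6 and 32.1. The signal of a probe set depends on its probes, so levels are not compared between genes.

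**Figure D1:**
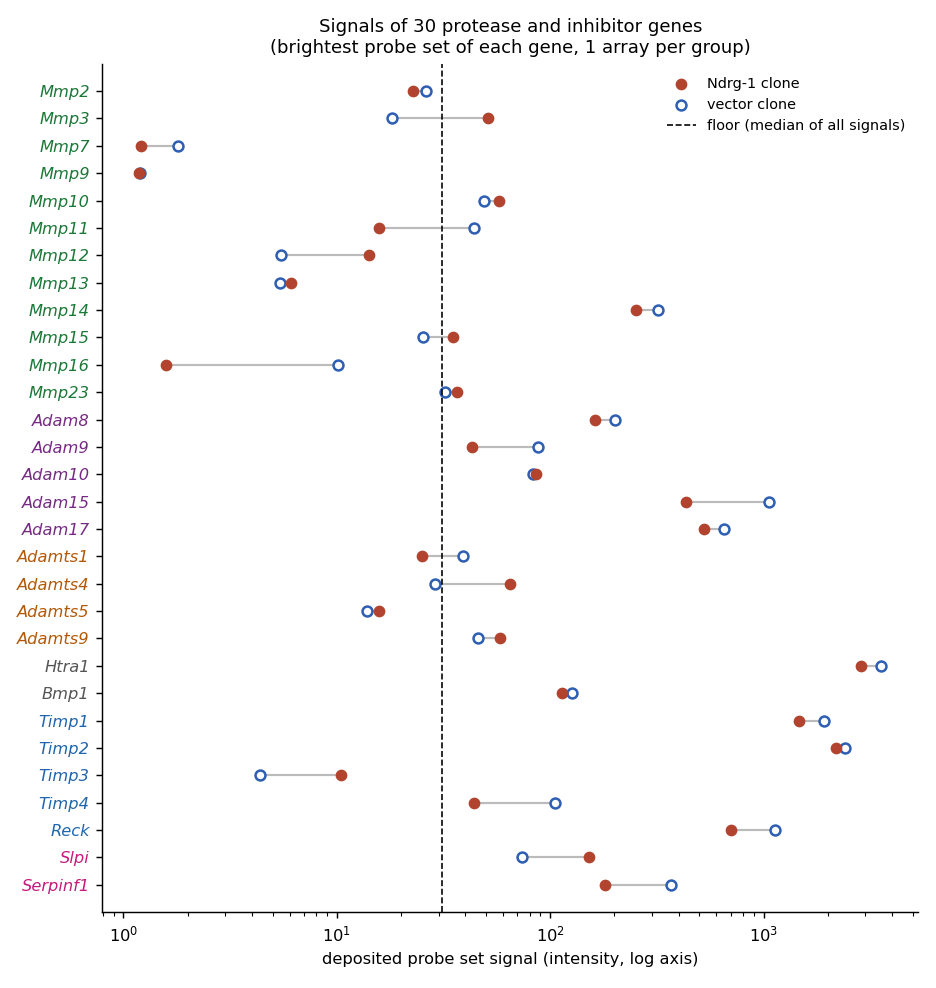
Deposited signals of the 30 genes in both arrays (log axis; 1 filled point for the Ndrg-1 clone and 1 open point for the vector clone, with no error bar because there was 1 array per group). Names are coloured by class, and 8 genes lie left of the floor of 31.0 in both arrays.

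At least 2-fold differences were counted for 6 genes of the set, against 3.13% of all measured genes. In the Ndrg-1 clone 2 were higher, against 1.62% of the 9182 genes measured, and 4 were lower, against 1.5%. Adamts4 and Slpi were higher, and Adam15, Timp4, Serpinf1 and Adam9 were lower. Adamts4 passed the floor in the Ndrg-1 clone only, where it was high, so its place in the count supports nothing. The other 5 were over the floor in both arrays. Ratios are relative to the median gene, to which the array of the vector clone was rescaled. Scaling to the hybridisation spikes moved the median gene to 0.53 and left 0 members 2-fold lower, and scaling to the poly-A spikes moved it to -0.19 and left 0 members 2-fold higher. The only error available is the disagreement between probe sets of 1 gene, with an SD of 0.29 on the log2 ratio for mean signals under 100, 0.23 from 100 to 400, and 0.17 at 400 or more. It is pooled over genes with several probe sets and leaves out variation between clones, cultures and arrays. Of the 17 genes over the floor in both arrays, 7 had a ratio beyond 2 SD for their signal and 10 did not. Timp1, counted among the 7, was within 2 SD with quantile normalization or with the lowess trend removed. How often genes reach 2-fold depends on signal, with 7.37% of genes under 100, 2.38% from 100 to 400 and 0.784% at 400 or more. Adam9, Adamts4 and Timp4 lie in the first range, Slpi and Serpinf1 in the second, and Adam15 in the third.

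**Figure D2:**
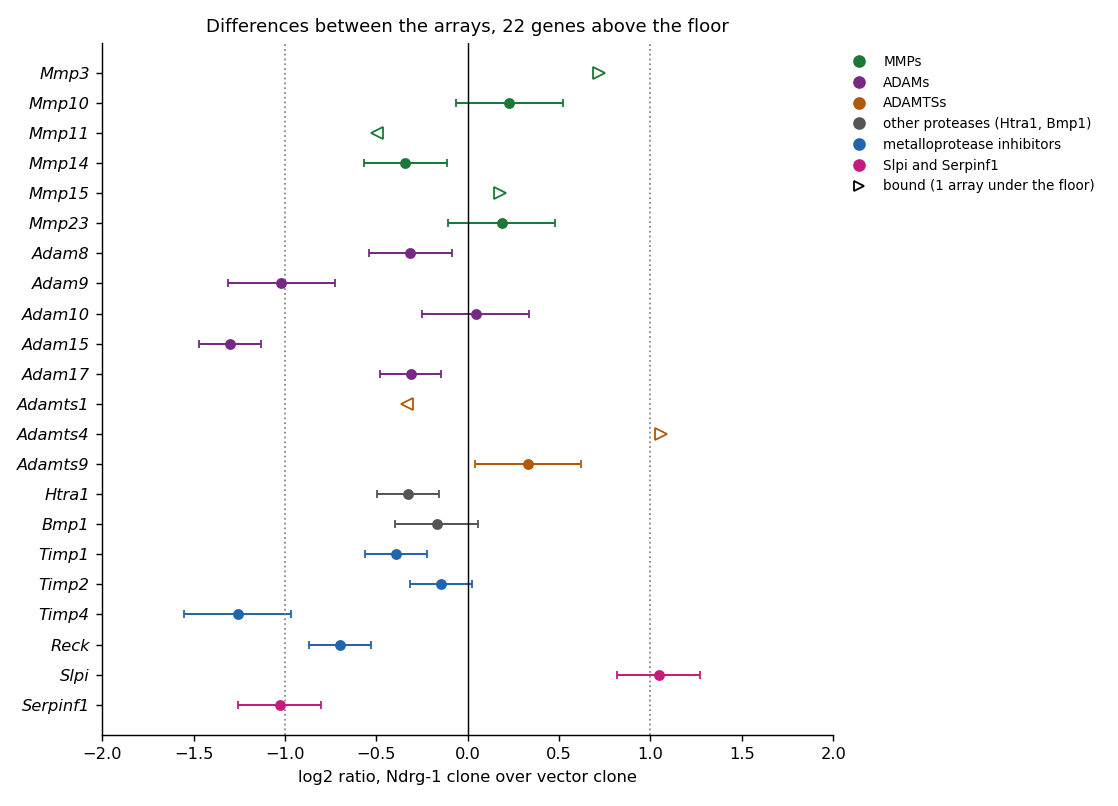
Log2 ratio (Ndrg-1 clone over vector clone) of the 22 genes over the floor in 1 or both arrays, coloured by class. Bars on filled points are 1 SD of the disagreement among probe sets, pooled over all genes with several probe sets in that range of signal and not measured for the gene itself, open triangles are bounds for genes under the floor in 1 array, and dotted lines mark 2-fold, which 6 genes reached. Scaled to the hybridisation spikes, Timp1 and Timp2 lie above 0 and 0 genes are 2-fold lower, and Timp2 also lies above 0 with quantile normalization, the lowess trend removed, the median over probe sets or its second probe set.

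Among the MMPs, 6 of 12 were over the floor in 1 or both arrays and 0 reached 2-fold. Mmp14, the membrane-anchored MMP that activates the precursor of MMP2, had signals of 253 in the Ndrg-1 clone and 319 in the vector clone, a log2 ratio of -0.34. Its dimmer probe set had 33.0 and 24.9, at the floor in the vector clone, a ratio of 0.09 or more. The probe sets of Mmp14 therefore did not give 1 direction. The ratio of the brighter lies within 2 SD, while that of the dimmer is a lower bound and cannot be set against it. Mmp10 (stromelysin-2) had 57.8 and 49.2 (0.23), and Mmp23 had 36.6 and 32.1 (0.19), also within 2 SD, with its 2 other probe sets under the floor. Mmp15, a further membrane-anchored MMP, was at 0.18 or more.

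Mmp3, or stromelysin-1, which cleaves many matrix proteins and activates other MMPs, read 51.1 in the Ndrg-1 clone and 18.2 in the vector clone. It was therefore higher in the Ndrg-1 clone by at least 1.65-fold. Mmp11 (stromelysin-3) was on the opposite side, with 15.8 in the Ndrg-1 clone and 43.7 in the vector clone, or at least 1.41-fold lower. Each of the 2 genes passed the floor only in the clone where it was high, so its direction supports nothing. Both values depend on the floor. When it was set at the 25th percentile of signals, their log2 ratios were 1.48 and -1.47, past 2-fold. At that floor 444 genes were 2-fold higher and 463 lower, of 12281 measured. With the pseudocount of 16 in place of the floor, Mmp3 was at 0.97 and Mmp11 at -0.91, both below 2-fold. Scaled to the hybridisation spikes, Mmp3 was at 0.98 and Mmp11 at -0.21. Each has 1 probe set.

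Mmp13, Mmp12, Mmp3, Mmp10 and Mmp7 lie in this order in 1 cluster of 10 protein-coding genes in RefSeq's annotation of the rat assembly GRCr8, all of which carry an MMP name. Only Mmp3 and Mmp10 of these 5 were over the floor. Mmp7 (matrilysin) had signals of 1.21 and 1.8, Mmp12 (macrophage elastase) 14.2 and 5.45, and Mmp13 (collagenase-3) 6.09 and 5.43. Mmp8, a further gene of the cluster with a probe set, was also under the floor, at 12.9 and 19.6.

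The promoters of the 5 cluster genes are shown because they share a layout that is a textbook feature of inducible MMP genes, an AP-1 motif upstream of a TATA box. AP-1 is the dimer of FOS and JUN proteins. Each line gives the 100 bases before the start of the gene, 5′ to 3′ on the plus strand, from RefSeq (GRCr8). Capitals mark matches on either strand. The letters searched were TGANTCA for AP-1. For the TATA box they were TATAAA. For the GC box, which binds factors of the SP family, they were GGGCGG. They are at chr8:12782729-12782828 (Mmp13), chr8:12866552-12866651 (Mmp12), chr8:12925181-12925280 (Mmp3), chr8:12974607-12974706 (Mmp10) and chr8:13132943-13133042 (Mmp7).
Mmp13: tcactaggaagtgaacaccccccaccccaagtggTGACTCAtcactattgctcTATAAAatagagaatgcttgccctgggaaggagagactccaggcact
Mmp12: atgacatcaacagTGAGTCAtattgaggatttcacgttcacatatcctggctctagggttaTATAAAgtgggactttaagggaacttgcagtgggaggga
Mmp3: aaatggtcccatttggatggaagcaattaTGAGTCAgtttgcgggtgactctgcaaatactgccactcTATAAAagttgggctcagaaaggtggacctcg
Mmp10: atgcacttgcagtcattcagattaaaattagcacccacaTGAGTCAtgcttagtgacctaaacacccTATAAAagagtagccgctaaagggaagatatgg
Mmp7: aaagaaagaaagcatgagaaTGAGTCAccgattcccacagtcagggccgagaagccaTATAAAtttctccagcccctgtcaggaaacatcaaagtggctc

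The AP-1 motif began at position -66 in Mmp13, -87 in Mmp12, -71 in Mmp3, -61 in Mmp10 and -80 in Mmp7, counted back from the base before the start as -1. The TATA box nearest to the start began at -47, -39, -32, -33 and -43. Over the 300 bases from 250 before to 50 after the start, the AP-1 motif was found in these 5 promoters and in 0 of the 17 others of the set with a promoter sequence, against 7.33% of 27457 rat promoters. Both motifs lay within the 100 bases before the start in the same 5 and in 53 of all promoters (0.193%). AP-1 and TATA matches do not overlap in the stretches shown. A match describes letters only, and no match says nothing about the factor.

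Of the 24 transcription factor genes listed for their known action on MMP genes, 22 were measured, and 3 were higher in the Ndrg-1 clone by at least 2-fold and 0 lower, against 1.62% and 1.5% of all measured genes. These 3 (Fos, Atf3 and Fosb) passed the floor in the Ndrg-1 clone only, where they were high, so their count supports nothing. The median log2 ratio of the 19 over the floor in both arrays was -0.08, against 0.0036 over all such genes. Fos had signals of 137 and 19.6 (at least 4.43-fold higher), but its second probe set was under the floor in both arrays, and Atf3 was at least 2.41-fold higher (74.8 against 23.4). Fosb was at 1.12 or more. The other AP-1 genes were at 0.31 (Fosl1), 0.52 (Fosl2), -0.22 (Jun), -0.18 (Junb) and 0.54 (Jund). Whether these differences bear on Mmp3 or Mmp10 was not tested.

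Among the ADAMs, all 5 with a probe set were over the floor in both arrays, and Adam15 and Adam9 were lower in the Ndrg-1 clone by at least 2-fold. Adam15, or metargidin, a membrane protein with an integrin-binding RGD motif in its human form, had signals of 431 in the Ndrg-1 clone and 1061 in the vector clone. This is 2.47-fold lower (log2 ratio -1.30, with 2 SD of 0.34 at this signal), and 0.653% of measured genes had a lower ratio. It was the 1 member among 24 genes past 2-fold at mean signals of 400 or more. Scaled to the hybridisation spikes the ratio was -0.76, below 2-fold, and Adam15 has 1 probe set.

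The promoter of Adam15, shown for contrast with the MMP cluster as that of the protease gene with the lowest ratio, had neither an AP-1 nor a TATA motif in the 300 bases. It had 5 GC box matches, of which the last 2 overlap. This was common in the set: of the 17 members outside the cluster with a promoter sequence, 0 had an AP-1 motif, 1 a TATA box and 13 a GC box. The stretch is chr2:177062850-177062949 on the minus strand, in the same format.
Adam15: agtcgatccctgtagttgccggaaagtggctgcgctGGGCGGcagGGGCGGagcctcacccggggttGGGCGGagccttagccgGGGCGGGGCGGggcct

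Adam9 had signals of 43.1 in the Ndrg-1 clone and 87.2 in the vector clone, 2.03-fold lower (-1.02, with 2 SD of 0.58), on 1 probe set and just past the 2-fold line. With a pseudocount of 16 in place of the floor it was at -0.81, and scaled to the hybridisation spikes at -0.48. Adam17, the sheddase that releases TNF and ligands of the EGF receptor, had 524 and 649 (-0.31), within 2 SD. Adam10, the sheddase of NOTCH receptors and cadherins, had 86.0 and 83.2 (0.04). Its dimmer probe set, at 30.8 and 30.9, lay just under the floor in both arrays. Adam10 sits between Cspg4 and Nck1, in a stretch of which 171 genes were measured with a median log2 ratio of 0.12. Adam8, known from leukocytes and from invasive tumours, had 162 and 201 (-0.32), and its second probe set was under the floor.

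Among the ADAMTS proteases, 3 of 4 were over the floor in 1 or both arrays and their signals were low. Adamts4, an aggrecanase that cleaves cartilage and vascular proteoglycans, read 64.7 in the Ndrg-1 clone and 28.8 in the vector clone. It was at least 2.09-fold higher, on 1 probe set. The ratio was 0.96 when scaled to the poly-A spikes and 0.85 with the pseudocount, and no ratio could be given at the floor of the 75th percentile. Adamts9 was over the floor in both arrays, at 57.9 and 45.9 (0.33), within 2 SD. Adamts1 was at 25.1 in the Ndrg-1 clone and 38.9 in the vector clone, or -0.33 or lower. Adamts5, the neighbour of Adamts1 in the RefSeq annotation and the other main aggrecanase, was under the floor, with 15.8 and 13.8 on its brighter probe set. In the promoter of Adamts4 none of the 3 motifs was found. The stretch chr13:86202911-86203010 on the plus strand is shown because it is that of the 1 protease gene at least 2-fold higher.
Adamts4: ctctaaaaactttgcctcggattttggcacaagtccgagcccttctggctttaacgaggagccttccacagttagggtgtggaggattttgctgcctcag

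Htra1, a secreted serine protease that degrades matrix proteins, had signals of 2852 in the Ndrg-1 clone and 3561 in the vector clone (-0.33). Bmp1, the astacin-type metalloprotease that trims procollagens, had 113 and 127 (-0.17), and 62.1 and 51.8 on its second probe set (0.26). Its probe sets thus pointed in opposite directions, each within 2 SD. Signals of 1500 or more had their own trend: the 590 genes in this range had a median log2 ratio of -0.18 and 0 reached 2-fold. Htra1, Timp1 and Timp2 lie in it, and with quantile normalization Htra1 was at -0.06.

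In the main setting the 4 measured metalloprotease inhibitors had ratios below 0, but Timp2 turned above 0 with quantile normalization (0.0054), the lowess trend removed (0.026), the median over probe sets (0.010) or its second probe set (0.17), and both Timp1 (0.15) and Timp2 (0.40) did so scaled to the hybridisation spikes. Timp4 and Reck were below 0 in each alternative that gave them a value. Each has 1 probe set, so the choices of probe set could not change them. Timp4, a TIMP with narrow tissue expression, had signals of 43.9 in the Ndrg-1 clone and 105 in the vector clone. It was 2.39-fold lower (-1.26, with 2 SD of 0.58) on 1 probe set, and 0.708% of measured genes had a lower ratio. Scaled to the hybridisation spikes it was at -0.72, and with the pseudocount it remained past 2-fold.

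Reck, a membrane-anchored glycoprotein that inhibits several MMPs and ADAM10, had signals of 699 in the Ndrg-1 clone and 1130.1 in the vector clone. It was 1.62-fold lower (-0.70, with 2 SD of 0.34), below the 2-fold line. Of the measured genes, 3.68% had a lower ratio. Timp1, a broad MMP inhibitor that also blocks ADAM10, had 1469 and 1919.9 (-0.39), in the range of bright genes whose median was -0.18. This is beyond 2 SD (0.34) in the main setting but within it with quantile normalization (-0.31) or the lowess trend removed (-0.27). Timp2, which inhibits MMPs and also takes part in the activation of pro-MMP2 by MMP14, had 2184 and 2409 (-0.15) and, on its second probe set, 174 and 154 (0.17). Timp3, the matrix-bound inhibitor of ADAM17 and of the aggrecanases, had 4 probe sets, and none exceeded 10.5 in either array.

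The remaining secreted proteins went in opposite directions. Slpi, the secretory leukocyte protease inhibitor, which blocks serine proteases such as neutrophil elastase, read 152 in the Ndrg-1 clone and 73.3 in the vector clone. It was 2.06-fold higher (1.05, with 2 SD of 0.45). It dropped below 2-fold scaled to the poly-A spikes (0.85) and with the pseudocount (0.91). Serpinf1, or PEDF, is a serpin that inhibits blood vessel growth and has no known protease target. It had 181 in the Ndrg-1 clone and 368 in the vector clone, 2.04-fold lower (-1.03, with 2 SD of 0.45). It was below 2-fold scaled to the hybridisation spikes (-0.49) and with the pseudocount (-0.97). Each was read by 1 probe set, so for none of the 6 genes past 2-fold could a further probe set be set beside the ratio.

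**Figure D3:**
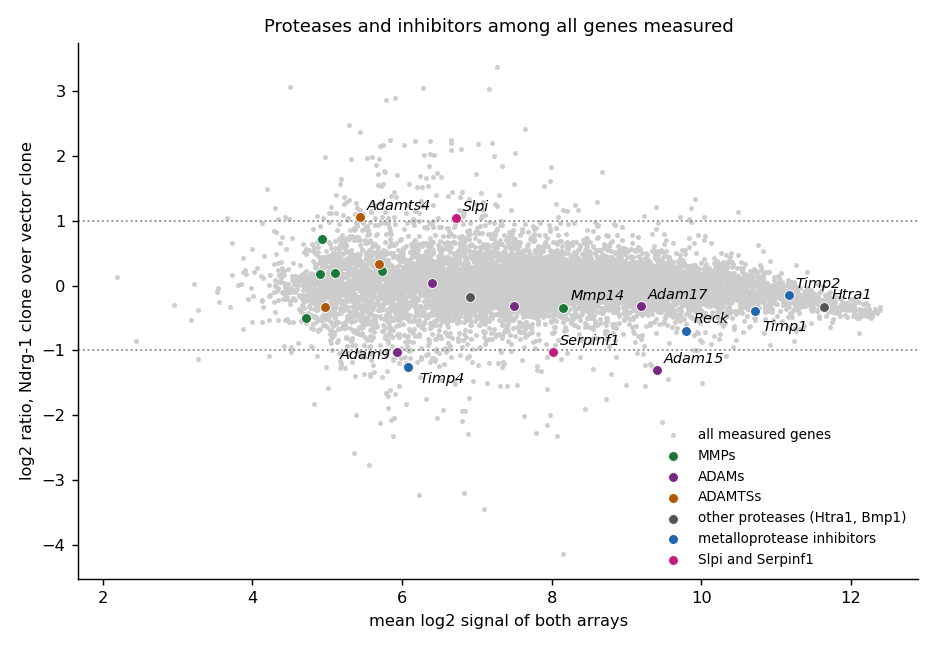
Log2 ratio against the mean log2 signal of both arrays for the 9182 measured genes (grey, 1 point per gene) and the 22 measured proteases and inhibitors (coloured by class). Dotted lines mark 2-fold; Adam15 is the coloured point farthest below 0 and lies among bright genes, where few reach 2-fold.

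The balance of protease to inhibitor can be followed only as a change between the arrays, since signals of different probe sets have no common scale. The 10 metalloproteases over the floor in both arrays had a median log2 ratio of -0.24, 4 above 0 and 6 below, with a range from -1.30 to 0.33. The 4 inhibitors TIMPs and Reck had a median of -0.54, with a range from -1.26 to -0.15, and 4 of 4 were below 0 in the main setting, of which Timp2 is not under the 5 alternatives named above and Timp1 not under the scaling to hybridisation spikes. All 8552 genes over the floor in both arrays had a median of 0.0036, with 4316 above 0 and 4236 below. The medians of proteases and inhibitors differed by 0.30, which a common scaling factor does not change for the same genes. Scalings that depend on signal did change it, to 0.24 with quantile normalization and 0.21 with the lowess trend removed. With the floor at the 75th percentile the difference was 0.05, and with the median of all probe sets per gene 0.56. No error was computed for this difference.

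Of 18 pairs of a protease with an inhibitor known to act on it, 5 had both genes over the floor in both arrays, and the other 13 could not be followed, among them all with Timp3, Mmp2 or Mmp9. In 4 of the 5 the protease had the higher ratio. Mmp14 stood 0.92 above Timp4 and 0.36 above Reck on the log2 scale. Adam10 stood 0.74 above Reck and 0.44 above Timp1. For Mmp14 and Timp2 the difference was -0.19, which was -0.38 with quantile normalization, -0.40 with the lowess trend removed and 0.02 with the median over probe sets. With 2 SD of such a difference at 0.65, Mmp14 with Timp4 and Adam10 with Reck lay beyond it and the other 3 within it. This limit uses the SD of 0.23 pooled over all signals. Timp4 and Adam10 have mean signals under 100, where the SD is 0.29, so the limit is too narrow for them. With the pseudocount Mmp14 stood 0.69 above Timp4. The pairs share Mmp14, Adam10 and Reck and are not independent.

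**Figure D4:**
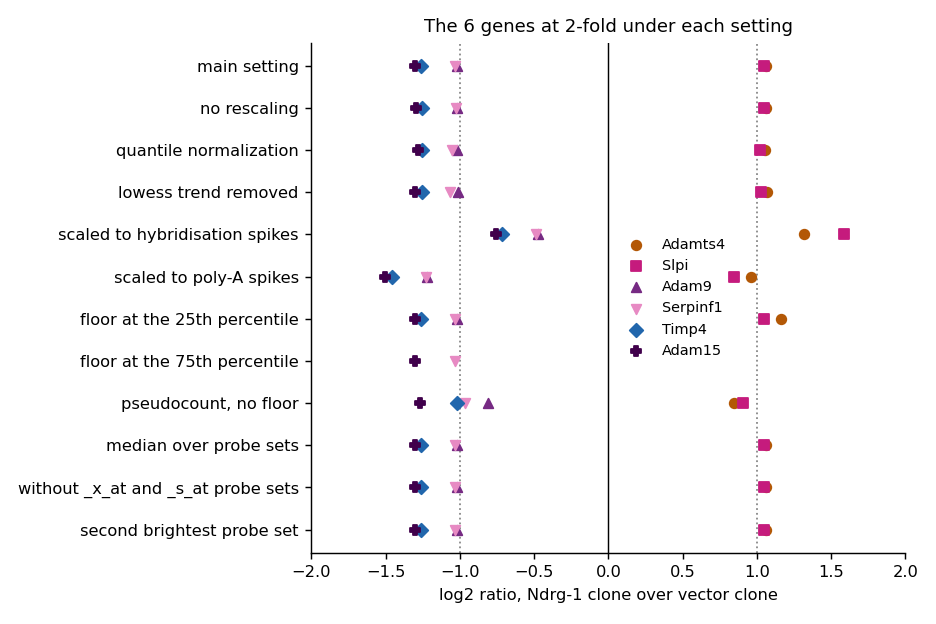
Log2 ratio (Ndrg-1 clone over vector clone) of the 6 genes at 2-fold in the main setting and in each of 11 alternatives (1 symbol per gene; a gene under the floor has none). Dotted lines mark 2-fold. Each of the 6 keeps its sign wherever it has a value, while the spike scalings and the pseudocount move several inside the lines. Each has 1 probe set, so the choices of probe set could not move it.

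Genes that act on or with these proteases were mostly below 2-fold, as were most measured genes, of which 3.13% reached it. Over the floor in 1 or both arrays were 64.6% of all genes. In lists of this size a count of 0 at 2-fold is near the share over all genes. Of 41 further MMP, ADAM, ADAMTS and tolloid genes listed, 25 were on the array, 10 were over the floor, and 0 reached 2-fold (median -0.15 for those over the floor in both arrays). The lowest was Adam33, with 112 in the Ndrg-1 clone and 222 in the vector clone, 1.99-fold lower (-0.995). Its side of the 2-fold line depends on the scaling. It was at -1.02 with quantile normalization or the lowess trend removed and at -1.19 scaled to the poly-A spikes. Scaled to the hybridisation spikes it was at -0.45. Of the 17 genes on the array for activation and trafficking of metalloproteases, 10 were over the floor and 0 reached 2-fold (median -0.17). The convertase Furin, which activates MMP14 and ADAMs, was at -0.14, and Bsg, the surface protein that induces MMPs, at -0.17. The largest difference was that of Lrp1, the endocytic receptor that clears proteases with their inhibitors (601 against 912, -0.61). Its second probe set was under the floor in both clones, and with the median over the probe sets its ratio turned to 0.75. Of the other extracellular inhibitors and enhancers, 8 of 17 were over the floor and 0 reached 2-fold (median -0.10), with Pcolce, the enhancer of Bmp1 on procollagen, at -0.58. Pcolce (2318 and 3449) lies in the range of 1500 or more, and was at -0.36 with quantile normalization and -0.37 with the lowess trend removed.

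Substrates of these proteases were listed in 2 sets. Of 28 substrates of ADAM10 and ADAM17 on the array, 14 were over the floor, against 64.6% of all genes. Of these 14, 0 reached 2-fold, against 3.13% of all measured genes (median -0.14). The highest was the receptor Mertk, at 61.9 against 33.2 (0.89), with its other probe set under the floor. Of 23 matrix substrates on the array, 17 were over the floor, 3 were higher in the Ndrg-1 clone by at least 2-fold and 1 was lower, against 1.62% and 1.5% of all measured genes (median -0.20). The basement membrane collagen chains Col4a1 (463 against 86.9, 5.31-fold) and Col4a2 (161 against 48.2, 3.32-fold) were higher, as was Col1a1 (1.11), and Col3a1 was 2.93-fold lower (356 against 1038). These lists were described by counts and no list was tested.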

How the data were processed

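The authors deposited 1 intensity per probe set and array, a signal on a linear scale. GCOS 1.3 is the software named, per the submitters' processing notes. How it summarised probes, called detection and scaled the arrays is not given in the sources used here. Of 31099 probe sets, 57 controls were set apart, 20826 carried 1 gene symbol, 436 several and 9780 none, and symbols were updated by gene ID to RefSeq (GRCr8).

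The vector array was rescaled by 0.0048 on the log2 scale, so that probe sets brighter than the median had a median ratio of 0. Lower signals were raised to the floor of 31.0 ahead of the log2 step, which gave 9182 measured genes and bounds where 1 array was at the floor. A difference was counted at 2-fold. The members and lists were chosen with earlier results of these data known. Named genes are all members and, per further list, up to 2 per direction past 2-fold or the 1 with the largest ratio. Col1a1, Fosb, the other AP-1 genes, Furin, Bsg, Mmp8 and the marker genes were named after their values were seen. The fold rule was tested on simulated data, with changes larger than those of the members past 2-fold and only in brighter genes. That test does not cover dim genes or changes near 2-fold. Alternatives were 5 scalings, 2 floors, a pseudocount of 16 and 3 choices of probe set. Protein sequences were not analysed here. The tools were pandas 2.3.3, numpy 2.4.6 and, for lowess, statsmodels 0.14.6, under Python 3.11.15.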

Additional observations from a re-analysis of the deposited data

How the results depend on the processing

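Direction was kept by each of the 6 genes past 2-fold wherever an alternative gave a value (ratios from -1.50 to -0.76 for Adam15 and from 0.85 to 1.59 for Slpi). Adam15 stayed past 2-fold in 10 of 11 alternatives, but not all of these could move it. Each of the 6 genes has 1 probe set, so the choices of probe set could not change their ratios. Both signals of Adam15 also lay over the floors at the 25th and 75th percentiles. Its ratio therefore stayed at -1.30 under these choices of probe set and floor, and these settings are no check of it. Without the rescaling it was at -1.298. Scaled to the hybridisation spikes, which moved the median gene to 0.53, 0 members were 2-fold lower, and the medians were 0.23 for metalloproteases and -8.3e-05 for TIMPs and Reck. Scaled to the poly-A spikes, which moved it to -0.19, 0 members were 2-fold higher. With the floor at the 75th percentile, 9 members were above it, 0 were 2-fold higher and 2 lower. With the pseudocount, 0 were higher and 2 lower. With the median over probe sets, the metalloprotease median was 0.018, and Mmp14 stood 1.29 above Timp4 and 0.73 above Reck. The spike scalings also moved the counts over all genes, to 732 higher and 43 lower and to 102 higher and 232 lower, against 149 and 138. Floors at the 25th and 75th percentiles gave 444 and 463, and 23 and 34. With 1 array per group no replicate could be left out, and no paired analysis was possible because each group has 1 sample. Members near the floor were limited by signal over background.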

Other observations

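Promoter letters were set beside the signals as a description. Of the 22 members with a promoter sequence, 13 held a GC box (GGGCGG) in the 300 bases, and 12 of these were over the floor in 1 or both arrays. Of the 9 without a GC box, 6 were over it. No promoter sequence was at hand for Mmp2, Mmp9, Mmp16 and Adamts5, all under the floor, or for Mmp14, Adam9, Bmp1 and Slpi. These counts therefore leave out many of the members under the floor. Over all genes on the array with a promoter sequence, 74.7% of 6745 with a GC box and 55.3% of 4988 without were over the floor. Of the 6 members with a TATA box (TATAAA), 3 were over the floor, against 496 of 992 such genes on the array and 67.9% of 10741 without. Among these 22, Timp3 was the 1 member with a GC box and no signal over the floor. Adamts1 was the 1 of them outside the MMP cluster with a TATA box. Serpinf1, Timp4, Adamts4 and Htra1 held none of the 3 motifs.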
